A study of Mus musculus with 2 samples.

Results

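Granular layer keratinocytes are the last living cells of the epidermis before they turn into the dead cornified layer. They were described here in 2 single-cell RNA libraries of mouse skin. A cell was taken as granular when the transcripts of 5 genes made up at least 0.5% of its unique molecular identifiers (UMIs), with at least 3 of the 5 detected and at most 2 UMIs of Krt79, a keratin of the upper hair follicle. The 5 genes were Lor (loricrin), Flg (filaggrin), Flg2 (filaggrin-2), Nccrp1 and Lce1m (a late cornified envelope protein). A cell also needed 500 or more genes, 3000 or more UMIs and a mitochondrial share of no more than 10%. The rule found 192 cells among 11773 retained barcodes.

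The skin came from C57Bl6 mice of 8 weeks, male and female by the labels, while the 4 Y-linked genes listed (Ddx3y, Uty, Kdm5d and Eif2s3y) had no UMI in the granular cells of either library, where a count of 0 allows up to 3.405 and 1.43 CPM (counts per 1000000 UMIs). It had received an intradermal injection of 100 ng sitagliptin, an inhibitor of the protease DPP4, in 100 µl PBS, or of PBS alone. The labels give a time of 48 h but leave unclear from which event it counts, and neither the number of animals nor their pooling is given in the sources used here. Each treatment has 1 10x Genomics Chromium library, so nothing was tested, and each 95% interval covers counting error only, not differences between animals or cells. A letter in the file name of each library is the initial of the other treatment, so the text says PBS-labelled and sitagliptin-labelled. If the labels were exchanged, every direction between the libraries would turn.

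In the epidermis, basal cells divide and hold Krt5 and Krt14, and cells that leave the basal layer switch to Krt1 and Krt10 in the spinous layer. Granular cells store profilaggrin and loricrin, secrete lipids from lamellar bodies, and assemble a protein envelope that transglutaminases crosslink. Kallikreins and other proteases later cut filaggrin and the junctions between the dead cells, under the control of inhibitors such as Spink5. Many of the envelope genes lie together in the epidermal differentiation complex.

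Of the 5 rule genes, 4 lie in that complex on chromosome 3 (GENCODE vM21, mm10). Lor spans chr3:92080271-92083142 on the minus strand and Lce1m spans chr3:93017810-93019060 on the minus strand. Flg2 spans chr3:93197278-93221391 and Flg spans chr3:93273523-93293686, both on the plus strand. Nccrp1 lies outside it, at chr7:28543596-28547254. The stretches before the RefSeq start of 4 of the 5 rule genes (GRCm38.p6) are shown because these genes chose the cells together. Each is the 120 bases before the start, 5′ to 3′ on the gene's strand, with capitals for the letters TGANTCA, the AP-1 motif, and TATAAA, the TATA box:
Lor, chr3:92083143-92083262: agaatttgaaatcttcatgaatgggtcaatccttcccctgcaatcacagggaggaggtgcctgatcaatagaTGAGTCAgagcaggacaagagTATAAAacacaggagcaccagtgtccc
Flg, chr3:93273426-93273545: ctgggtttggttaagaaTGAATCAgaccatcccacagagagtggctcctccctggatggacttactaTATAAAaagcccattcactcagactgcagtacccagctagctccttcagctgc
Flg2, chr3:93197153-93197272: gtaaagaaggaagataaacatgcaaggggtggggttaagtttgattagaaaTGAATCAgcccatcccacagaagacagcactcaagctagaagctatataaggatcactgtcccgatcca
Lce1m, chr3:93019062-93019181: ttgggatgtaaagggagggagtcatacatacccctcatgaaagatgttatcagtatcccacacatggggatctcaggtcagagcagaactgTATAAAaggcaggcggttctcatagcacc

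The AP-1 letters begin 48 bases before the start in Lor, 69 in Flg2 and 103 in Flg, and the TATA letters begin 27 bases before it in Lor, 29 in Lce1m and 53 in Flg. Both motifs were searched on both strands of windows from 250 bases before to 50 after each start, and no 2 matches overlapped in these 4 windows. The AP-1 letters were in 3 of these 4 windows and in 2565 of all 32851 windows (7.81%). They were in 34 of 240 windows (14.2%) of the genes that were higher in granular than in spinous-like cells (below), in 6 of 52 windows (11.5%) of those that were lower, and in 194 of 3114 windows (6.23%) of all genes compared. TATAAA was in 3 of the 4 windows, in 25 of the 240 (10.4%), in 4 of the 52 (7.69%), in 245 of the 3114 (7.87%) and in 4473 of all 32851 (13.6%). The letters of 2 other motifs, AACNNGTT of grainyhead-like factors and GGGTGTG of Krüppel-like factors, were in none of the 4. A match of letters is not a measured binding site.

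The PBS-labelled library gave 50 granular cells of 4955 retained barcodes, or 1.01% (Clopper-Pearson interval 0.750 to 1.33). The sitagliptin-labelled library gave 142 of 6818, or 2.08% (1.76 to 2.45). The share was thus 2.06 times as high in the sitagliptin-labelled library, and 3.15 times at a marker threshold of 0.25% and 3.81 times with possible doublets left out. Possible doublets were granular cells with at least 3 UMIs of macrophage, fibroblast or T cell markers, or among the 8% with most UMIs. They were left out of the granular cells only, not of the retained barcodes. Of the retained barcodes, 3704 of 4955 PBS-labelled and 2977 of 6818 sitagliptin-labelled ones had at least 3 such marker UMIs. The whole libraries differed as well. The PBS-labelled file held 10456 barcodes and 70729930 UMIs, and retained 47.4% of its barcodes. The sitagliptin-labelled file held 22085 barcodes and 95047000 UMIs, and retained 30.9%. Macrophage-like cells were 593 and 9 of the retained barcodes, and fibroblast-like cells 315 and 4, so the denominators are not the same mixture of skin cells. Spinous-like cells, defined by Krt1 and Krt10, numbered 885 and 2021. There were 5.65 and 7.03 granular cells per 100 spinous-like cells, a ratio of 1.24 between the libraries. The sources used here do not say how skin was dissociated or barcodes were called, and their part in these shares was not tested.

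The 5 genes chose the cells, so their values are a description. Lor had 16080 CPM in granular cells of the PBS-labelled library and 13440 CPM in those of the other. Per cell it ranged from 10.5 to 1144 UMIs per 10000 with a median of 81.8 in the first, and from 0 to 1304 with a median of 78.4 in the second. Flg had 4170 and 1741 CPM, but its medians per cell were close, at 9.86 and 8.49 UMIs per 10000, and the cells of the libraries overlapped over nearly their whole range. Flg2 had 4278 and 2987 CPM, Nccrp1 720 and 539 CPM, and Lce1m 2433 and 2189 CPM. The medians of the summed share were 1.55% and 1.37%, with highest cells at 20.9% and 23.5%. All 5 genes were detected in 31 of 50 and 97 of 142 cells.

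The lowest granular cells lay at 0.5005% (PBS-labelled) and 0.5023% (sitagliptin-labelled), and the highest cells left outside at 0.4465% and 0.4985%. Between 0.25% and 0.5% there were 12 and 127 cells that met the other criteria, so the threshold runs through a continuous range, above all in the sitagliptin-labelled library. Of 55 and 172 cells past the marker share, 1 and 3 had fewer than 3 of the genes and 4 and 27 others had over 2 UMIs of Krt79. Krt79 was at 0 in 36 of 50 and 100 of 142 granular cells. After each cell was thinned to 3000 UMIs, Lor was detected in 100% and 98.6% of granular cells and in 12.3% and 33.8% of spinous-like cells. It was also detected in 6.75% of the PBS-labelled macrophage-like cells, which should lack it, against 11.3% of them before thinning. Median depth was 4906 UMIs in these macrophage-like and 14648 UMIs in the PBS-labelled granular cells.

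**Figure D1:**
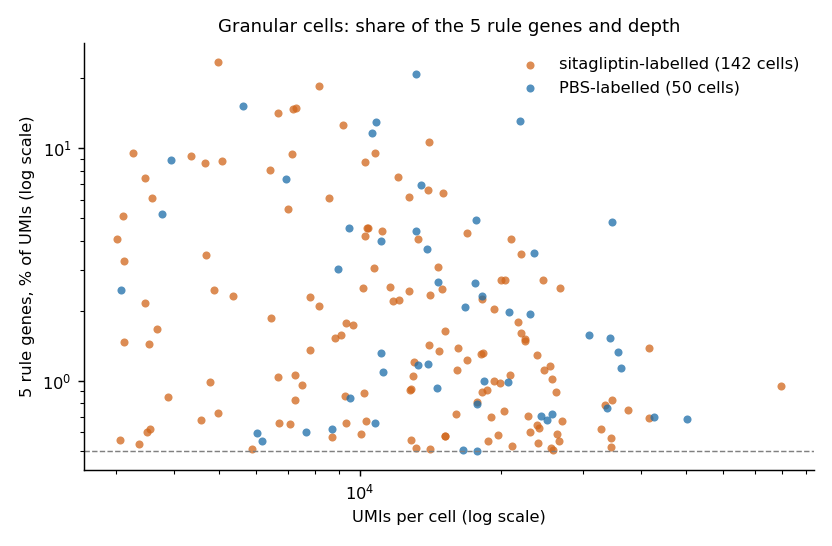
Share of the 5 rule genes against UMIs per cell, both on log scales, for the 50 PBS-labelled and 142 sitagliptin-labelled granular cells. Each point is 1 cell and the dashed line is the 0.5% threshold. Cells of both libraries spread from the threshold to shares above 20%, and the cells above 8% mostly have fewer UMIs than those near the threshold.

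The label was set beside genes that the rule did not use. Krt10, the partner of Krt1 in suprabasal cells, had 21110 and 21960 CPM in granular cells (PBS-labelled first, here and below), against 19850 and 21700 CPM in spinous-like cells and 514.5 CPM in PBS-labelled macrophage-like cells, which should lack it. Spinous-like cells were chosen for high Krt1 and Krt10, and macrophage-like cells for low Krt1, Krt10, Krt5 and Krt14. So Krt10 could not check the label against either group, and its levels are a description. Detection alone separated granular from macrophage-like cells poorly. After thinning to 3000 UMIs, Krt10 was found in 98.0% and 99.3% of granular cells but also in 78.4% of the PBS-labelled macrophage-like cells. Krt77, a suprabasal keratin, had 23460 and 24310 CPM, against 344 CPM in them. The choice of macrophage-like cells for low keratins bears on Krt77 too, so its levels are also a description. Markers of inner root sheath and hair summed to 3.41 and 7.13 CPM over 12 genes, with 10 and 8 of them at 0, and melanocyte markers summed to 0 and 4.28 CPM over 8 genes, where a count of 0 allows up to 3.405 CPM. Upper follicle markers were present, at 6566 and 5022 CPM over 10 genes against 1300 and 1456 CPM in spinous-like cells, and of 4 compared Krt17, Cst6 and Atp6v1c2 were at least 2-fold higher in granular cells in both libraries. Cst6 alone, which is also on the protease inhibitor list, made up 4559 and 3280 CPM of that. Sebocyte markers summed to 1717 and 1948 CPM over 12 genes, against 2733 and 2170 CPM in spinous-like cells, with Fabp5 at 1537 and 1726 CPM and Awat1 and Mc5r at 0 in both libraries. Krt17, found in follicle and stressed epidermis, was present in 46 of 50 and 124 of 142 cells at 1540 and 1108 CPM, between the spinous-like and the upper-follicle-like cells. Doublets were kept, since no caller was run. At least 3 UMIs of macrophage, fibroblast or T cell markers were found in 29 of 50 and 29 of 142 granular cells, and the highest cell had 147 and 22 of them. The 5 rule genes and these gates do not separate interfollicular granular cells from those of the follicle opening.

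Granular cells were then set against the spinous-like cells of the same library. To be compared, a gene needed 50 CPM in granular or spinous-like cells, in each library. One that passed only through granular cells could not be called lower, and one that passed only through spinous-like cells not higher. Of 3083 genes compared, 261 (8.47%) were at least 2-fold higher in granular cells in both libraries and 52 (1.69%) at least 2-fold lower. These genes were selected with the same cells in view, the rule genes were left out, and the counts describe these libraries. Over the 7887 genes with at least 20 UMIs in granular cells of both libraries together, the median log2 difference was -0.36 with PBS-labelled and -0.25 with sitagliptin-labelled cells. The list medians below took only members among these genes, which favours genes present in granular cells.

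Cornified envelope and related late genes had the highest median of the lists. Of 42 listed genes, 19 had enough counts to be compared, and 18 of these were at least 2-fold higher in granular cells in both libraries and none lower. Crct1 and the Lce1 genes named below reached 50 CPM only in granular cells, so they could not be called lower. The list's median log2 difference was 4.36 and 3.83. Crct1, a cysteine-rich gene of the same complex, had 3681 CPM in granular against 16.7 CPM in spinous-like cells of the PBS-labelled library, which is 220.5-fold (interval 193 to 253). In the sitagliptin-labelled library it had 2518 against 43.1 CPM, or 58.4-fold (54.7 to 62.5). It was found in 94.0% and 91.5% of granular cells, though 3 PBS-labelled cells held 46.2% of its UMIs there.

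The Lce1 genes, which encode late envelope proteins, behaved otherwise. Lce1a1 was 181-fold and 47.0-fold higher than in spinous-like cells, but only 42.0% and 38.7% of granular cells held any of it. In the PBS-labelled library 1 cell held 63.7% of all its UMIs, and 3 cells held 84.4%. Lce1a2, Lce1b, Lce1c, Lce1f and Lce1l were likewise 127-fold to 372-fold higher in the PBS-labelled and 31.4-fold to 51.4-fold higher in the sitagliptin-labelled library. For each of these 5 genes 1 PBS-labelled cell held between 52.05% and 73.1% of the UMIs. The fold of Lce1l in the PBS-labelled library was 7.965 with mitochondrial UMIs limited to 5% and 277 by mean CPM over cells, while that of Lce1c ran from 32.9 to 364. Between 21.1% and 50.6% of the 31-base words in the last 500 bases of these 6 genes occur in another gene's transcripts, so reads could be split among copies. Genes of wider distribution were Hrnr (hornerin) at 1985 and 1376 CPM, Cnfn (cornifelin) at 1505 and 1249 CPM, and Ivl (involucrin) at 564 and 493 CPM. Krtdap, a secreted product of differentiating keratinocytes, reached 31340 and 27620 CPM but was only 1.34 and 1.15 higher on the log2 scale, since spinous-like cells also held much of it.

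Proteases of cornification were higher as well, with a median log2 difference of 1.72 and 1.345. Of the 20 listed, 14 were compared, 12 were at least 2-fold higher in both libraries and none was lower. Asprv1, the protease that processes profilaggrin, had 5339 and 3578 CPM, 4.68 and 3.73 above spinous-like cells on the log2 scale, and was detected in 50 of 50 and 140 of 142 cells. The cathepsin Ctsl was 48.1-fold (42.0 to 55.2) and 28.5-fold (25.4 to 31.9) higher. The kallikrein Klk6 was 60.4-fold and 36.25-fold higher, and Klk7, which cuts corneodesmosomes, was 3.13 and 2.60 higher on the log2 scale at 2355 and 1983 CPM. Of 10 protease inhibitors compared, 5 were higher and none lower, with a median of 1.96 and 1.72. They included Spink5, which restrains the kallikreins, at 4131 and 4001 CPM, and Cst6, a cystatin that inhibits cathepsins, at 4559 and 3280 CPM.

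Of 30 barrier lipid genes compared, 15 were at least 2-fold higher in both libraries and none lower. Smpd3, a neutral sphingomyelinase, was 86.75-fold (62.7 to 122.5) and 35.4-fold (31.02 to 40.4) higher. Smpd1, the acid sphingomyelinase that forms barrier ceramides, was 3.23 and 2.63 higher on the log2 scale. The lipoxygenase Alox12b, which acts on ceramide-bound linoleate, had 309 and 281 CPM and was 3.415 and 2.94 higher. Abca12, which loads lipids into lamellar bodies, was 2.41-fold and 1.78-fold higher, and so missed the 2-fold size in the sitagliptin-labelled library. Of 8 crosslinking enzymes only Tgm1, the membrane transglutaminase, had counts enough to be compared, and it was 3.04 and 2.57 higher on the log2 scale. Cdsn (corneodesmosin) was the 1 higher gene among 12 desmosome genes, at 1898 and 1514 CPM, a count near the 8.47% over all genes compared.

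Of 12 cytokine and alarmin genes compared, 6 were at least 2-fold higher in granular cells in both libraries, 6 were not, and none was lower. Il18 was 82.4-fold (62.5 to 110) and 39.2-fold (32.7 to 47.3) higher. Il1f6, which encodes interleukin-36 alpha, was 177-fold and 45.2-fold higher, and Il1f5, its receptor antagonist, had 715 and 442 CPM. Btc (betacellulin), a ligand of the EGF receptor, was 155-fold (102 to 243.5) and 65.55-fold (52.0 to 83.55) higher, though only 22% and 29.6% of granular cells held it. In the PBS-labelled library 1 cell held 47.6% of its UMIs, and its level of 279 CPM was 149 CPM without that cell. Among transcription factors, 3 of 22 were higher in both libraries, beside 8.47% of all genes compared. Prdm1 (Blimp1), a repressor active in terminal differentiation, stood at 121 and 82.7 CPM against 2.67 and 3.255 CPM. Spns2, a sphingosine-1-phosphate transporter, and Aif1l completed the 15 genes farthest above spinous-like cells.

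The genes lower in granular cells differed less. The 10 that led were Kcnq1ot1, Oat, Lima1, Rgs12, Aqp3, Arhgef1, Ehd2, Cenpf, Prlr and Dst, between 2.38-fold and 3.55-fold lower. Aqp3, the glycerol channel of the epidermis, had 73.8 and 80.3 CPM against 201 and 202 CPM in spinous-like cells. Dst, which links keratins to hemidesmosomes, had 124 and 219 CPM against 391 and 522 CPM. Of 12 basal layer genes compared, 3 were lower and none higher. Krt1 was 0.519 and 0.541 times its spinous-like level and so just outside the 2-fold size, while Krt10 was at 1.06 and 1.01 times. The spinous-like cells were chosen by these 2 keratins, so the choice bears on both comparisons. Krt23, which spinous-like cells held at 22.1 and 34.6 CPM, stood at 645 and 514 CPM. How far the lower genes pass 2-fold depended on the member rule: 3 genes were lower at a marker threshold of 0.25% and 207 at 1%, against 52.

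**Figure D2:**
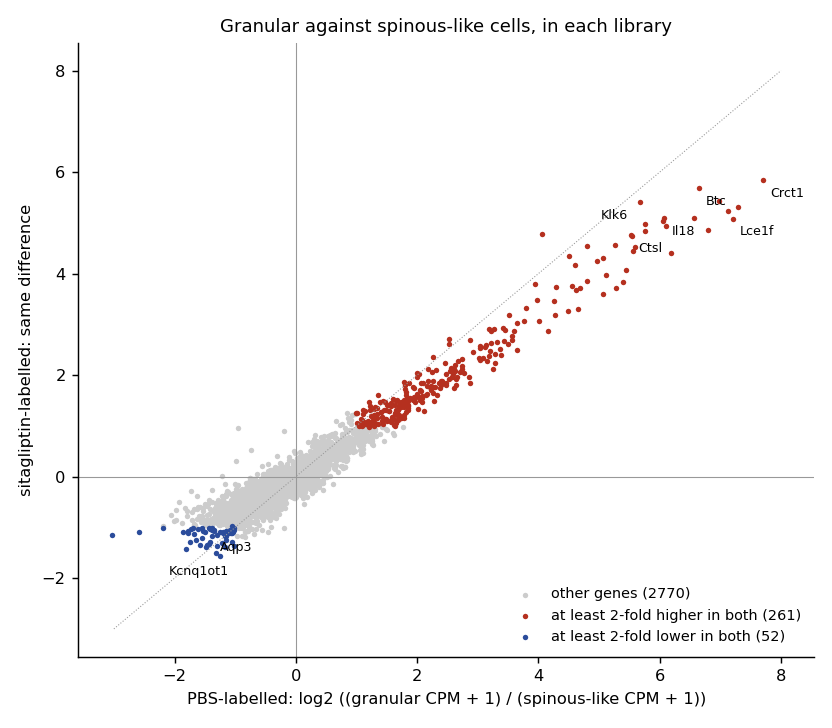
Log2 difference between granular and spinous-like cells for the 3083 genes compared, PBS-labelled library on the x axis and sitagliptin-labelled on the y axis, with 1 CPM added to each level. Red points are the 261 genes at least 2-fold higher in both libraries and blue points the 52 lower ones. Most of the strongly higher genes lie below the dotted line of equal differences.

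Differences above spinous-like cells were smaller in the sitagliptin-labelled library for all 15 leading genes, but larger for Lce1l and Klk6 when mitochondrial UMIs were limited to 5%. For 13 of them the level in its spinous-like cells was also higher, as for Lor, which had 87.1 and 271 CPM there, and the exceptions were Klk6 and Ctsl. The spinous-like cells included 11 and 129 cells with a rule-gene share of 0.25% or more. The part of that difference in the folds was not tested. Over 13 settings all 15 genes stayed at least 7.965-fold higher in both libraries, yet the size of the folds depended on the setting. That of Crct1 ran from 173 to 351 in the PBS-labelled and from 34.3 to 104 in the sitagliptin-labelled library, that of Btc from 119.6 to 1221 and from 37.1 to 125, and that of Il18 from 64.05 to 131 and from 23.1 to 71.3. Klk6 ran from 28.3 to 104 and from 23.1 to 55.1, and Smpd3 from 66.9 to 144 and from 21.9 to 58.7.

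Granular cells varied strongly along the share of the 5 rule genes. They were divided at 1, 2, 4 and 8%, giving 18, 10, 9, 7 and 6 PBS-labelled and 56, 31, 23, 17 and 15 sitagliptin-labelled cells, and levels were computed without the rule genes in the total. The upper ranges are thinly filled. Crct1 went from 494 CPM in the lowest to 32970 CPM in the highest range of the PBS-labelled library, and from 479 to 20840 CPM in the other. Il18 increased at each step in both libraries, from 48.0 through 119, 306 and 924 to 2665 CPM in the first, and from 38.0 through 185, 360 and 684 to 1795 CPM in the second. Asprv1 went from 1637 to 31450 CPM and from 1292 to 21770 CPM. Lce1a1 was between 50.8 and 193 CPM and between 76.0 and 299 CPM over the first 4 ranges, with no steady order, and stood at 5136 and 7574 CPM in the highest. There 1 of the 6 PBS-labelled cells had 211 UMIs per 10000 and the others between 0 and 26.0, and 4 of the 15 sitagliptin-labelled cells had between 153 and 297.5 and the others between 0 and 23.7.

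The suprabasal keratins went the other way. Krt1 had 6715 and 7285 CPM in the lowest range and 318 and 374 CPM in the highest, and Krt10 had 26150 and 25900 CPM against 2330 and 5675 CPM. Krt77 stayed between 20390 and 27260 CPM over the first 4 ranges in both libraries and had 5136 and 11600 CPM in the highest. Krt80, a keratin of late differentiation, went up instead, from 802 to 2012 CPM and from 732 to 2718 CPM. Mt4, a metallothionein of stratified epithelium, went from 652 to 88.25 CPM and from 779 to 51.9 CPM. Of 13 heat shock genes, 6 were at least 2-fold lower in both libraries above 4% than below 1%, Hspa8 among them. Over all genes this held for 427 of 2713. The median log2 difference was -1.15 and -1.14 for the heat shock genes and -0.41 and -0.29 over all genes.

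When 3 ranges were used (under 1%, 1 to 4% and over), 340 of 2713 genes were at least 2-fold higher in the top than in the lowest range in both libraries and 427 at least 2-fold lower. Of 21 cornified envelope genes 16 were higher and none lower, and of 16 proteases 11 were higher and none lower. Of 12 desmosome genes none was higher and 4 were lower, and of 7 nucleolar and ribosome biogenesis genes none was higher and 4 were lower. Genes detected per cell went down along the same ranges, from a median of 3748.5 to 1667 in the 5 ranges of the PBS-labelled library and from 3875.5 to 1485 in the other. UMIs per cell were 17801 and 10715, and 18031.5 and 7145, at the ends. The part of depth and of free RNA in the low levels at the top was not tested.

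**Figure D3:**
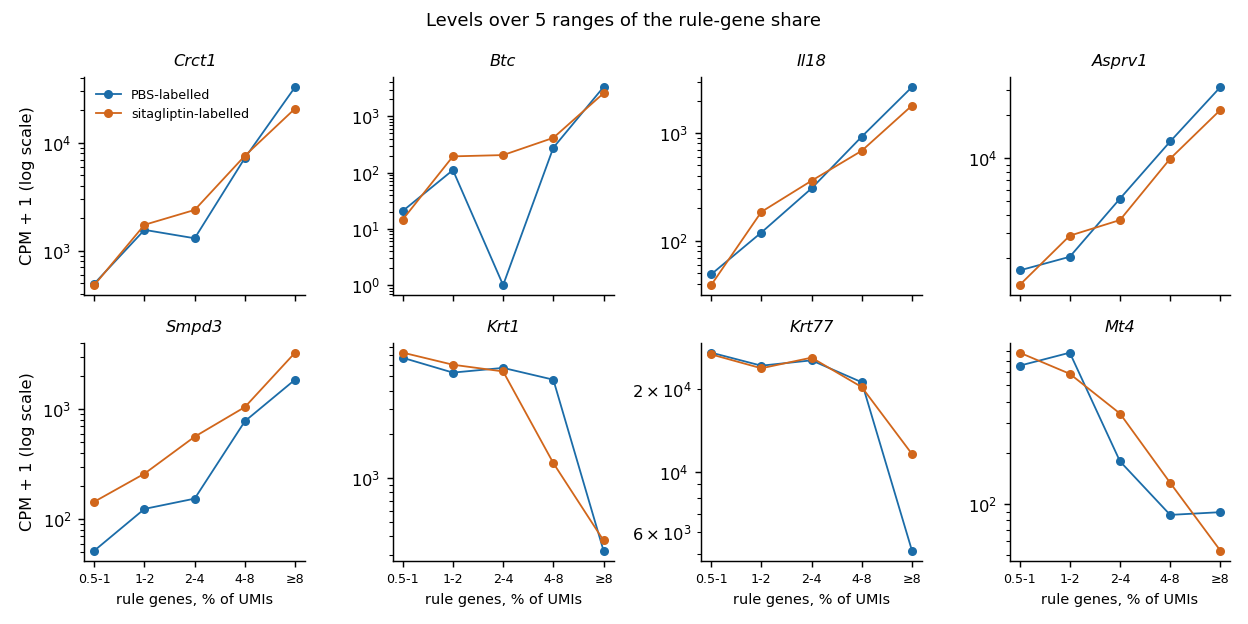
Levels of 8 genes (CPM plus 1, log scale, the 5 rule genes left out of the total) over 5 ranges of the rule-gene share, in each library. Each point sums the cells of 1 range, between 6 and 56 cells. Crct1, Il18, Asprv1 and Smpd3 are highest in the top range, Btc too with a range at 0 in the PBS-labelled library, and Krt1, Krt77 and Mt4 are lower there than in the first range.

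Between the libraries, most genes of granular cells were at similar levels. The PBS-labelled granular cells held 881057 UMIs together and the sitagliptin-labelled ones 2104088, with medians of 14648 and 12857 UMIs per cell. To be compared, a gene needed 20 UMIs in both libraries together and 50 CPM in one of them, which 2851 genes had. Of these, 175 (6.14%) were higher by 1.5-fold or more in the sitagliptin-labelled cells and 53 (1.86%) lower by as much, and the other 92% lay closer together. Only 23 and 14 were 2-fold apart. Higher genes were 76.8% of those apart, and this split was 60.5% when cells over 5% mitochondrial UMIs were left out and 60.6% after thinning to 3000 UMIs. With the median gene ratio set to 1 it was 66.3%. The median log2 ratio of these genes was 0.06. The shares of 6.14% higher and 1.86% lower are the background for the counts by list below.

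**Figure D4:**
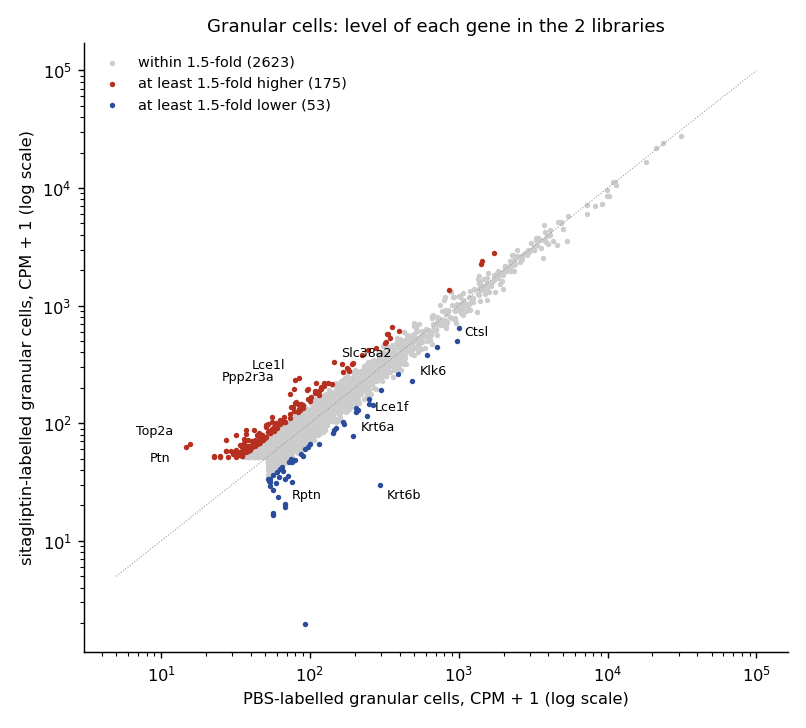
Level of each of the 2851 genes (CPM plus 1, log scales) in granular cells of the PBS-labelled (x axis) and sitagliptin-labelled (y axis) library. Red points are the 175 genes at least 1.5-fold higher in the sitagliptin-labelled cells, blue points the 53 lower ones and the dotted line marks equal levels. The lowest point is Retnla, named after its values were seen, with 91.9 and 0.9505 CPM, and 1 PBS-labelled cell held 80.25% of its UMIs there (18.3 CPM without that cell).

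The envelope genes did not move one way between the libraries. Of 22 genes of the list compared, 3 were at least 1.5-fold higher and 6 lower in the sitagliptin-labelled cells, with a median log2 ratio of -0.145 against 0.10 over all genes measured. Lce1l had 82.9 and 243 CPM, or 2.94-fold higher (2.30 to 3.81), and Lce3c had 26.1 and 71.3 CPM, 2.73-fold higher (1.75 to 4.44). Lce1f had 242 and 114 CPM, 2.13-fold lower (1.76 to 2.57), and Lce1e had 74.9 and 30.4 CPM, 2.46-fold lower. Single cells carried much of this: 1 PBS-labelled cell held 74.2% of the Lce1e UMIs and 56.3% of the Lce1f UMIs, and 1 sitagliptin-labelled cell held 34.2% of those of Lce1l. With the cell holding most of the gene left out in each library, the ratio of Lce1e was 1.10, that of Lce1f 0.786 and that of Lce1l 4.01. In spinous-like cells the same ratio was 7.29 for Lce1l, 2.38 for Lce3c, 5.32 for Lce1e and 3.675 for Lce1f. Of the words at the 3′ ends of Lce3c and Lce1e, 51.7% and 39.7% occur in other genes, so their reads could be split among copies too. Rptn (repetin) was 3.44-fold lower (2.27 to 5.25), in 9 of 50 and 10 of 142 cells, with a ratio of 0.324 in spinous-like cells, and Psors1c2 was 3.61-fold lower but was found in only 3 PBS-labelled cells.

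All 3 proteases past the 1.5-fold size among 14 compared were lower in the sitagliptin-labelled cells, and the list's median log2 ratio was -0.37. Ctsl had 979.5 and 499.5 CPM, or 1.96-fold lower (1.79 to 2.15). Its cells ranged from 0 to 103 UMIs per 10000 with a median of 2.49 in the PBS-labelled, and from 0 to 84.8 with a median of 1.78 in the sitagliptin-labelled library. The cells overlapped over almost the whole range, and 4 of 50 and 38 of 142 cells had none. Klk6 had 485 and 230 CPM, 2.11-fold lower (1.845 to 2.405), with 20 of 50 and 73 of 142 cells at 0. Klk9 had 211 and 129 CPM. Both Ctsl and Klk6 increased with the rule-gene share, and with 3 ranges of that share weighted alike their ratios were 0.616 and 0.542. The Klk6 ratio ran from 0.319 to 0.816 over the settings tried, and that of Ctsl from 0.348 to 0.676. In spinous-like cells the ratios were 0.791 for Klk6 and 0.861 for Ctsl. PBS-labelled macrophage-like cells had 430.7 CPM of Ctsl, against 20.4 CPM in PBS-labelled spinous-like cells. The part of macrophage RNA in the Ctsl difference was not tested.

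The wound-type keratins Krt6a and Krt6b, which are induced in injured epidermis, had 194 and 76.5 CPM and 294 and 29.0 CPM. Krt6b was thus 10.1-fold lower (7.645 to 13.6) in the sitagliptin-labelled cells. In spinous-like cells the ratios lay on the same side, at 0.239 for Krt6b and 0.570 for Krt6a. These levels rested on few cells. Krt6b was found in 7 of 50 and 9 of 142 cells, and 3 PBS-labelled cells held 95.4% of it, while 1 PBS-labelled cell held 81.3% of the Krt6a UMIs. Without the cell highest in each library Krt6a had a ratio of 1.505, and with mitochondrial UMIs limited to 5% the ratios of Krt6a and Krt6b were 14.9 and 1.04. Krt16, a further wound-type keratin, had 144.8 and 157.3 CPM without the cell highest in each library, a ratio of 1.09. Its ratio ran from 0.469 to 5.19 over the settings tried. Krt17 had a ratio of 0.719 without the highest cells. So the wound-type keratins did not all go one way. Of the 10 wound and stress genes compared, 4 were lower and 1 was higher, with a median log2 ratio of 0.20 over the 18 measured. Sprr2h and Sprr1b, small proline-rich envelope precursors, were the other lower ones at 0.543 and 0.625 times the PBS-labelled level, and Ereg (epiregulin), an EGF receptor ligand, was 1.51-fold higher at 320 and 484 CPM.

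Most basal layer genes compared were higher in the sitagliptin-labelled granular cells, by a size that depended on the setting. Of 9 compared, 7 were at least 1.5-fold higher and none lower, beside 6.14% and 1.86% of all genes compared. The list's median log2 ratio was 0.69, against 0.10 over all genes measured, and it ran from 0.095 to 0.98 over the settings tried. Krt14 had 1715 and 2826 CPM and Krt5 had 1432 and 2415 CPM. Per cell, Krt14 ranged from 0 to 65.4 with a median of 4.64 UMIs per 10000, and from 0 to 231 with a median of 14.05. The ranges overlapped, with 2 cells at 0 in each library. Krt15, Dst, Postn and Trp63 were between 1.63-fold and 1.85-fold higher. Top2a, needed for chromosome separation in dividing cells, had 14.8 and 65.1 CPM, or 4.41-fold higher (2.50 to 8.50). Both levels lay below the 93.2 and 140 CPM of spinous-like cells, and the sitagliptin-labelled library was the higher one there too. They also lay below the 141 CPM of PBS-labelled macrophage-like cells. In spinous-like cells the ratios of Krt14 and Krt5 were 1.25 and 1.45. Cells with Krt5 and Krt14 at 0.5% of UMIs or more were 13 of 50 (26%) and 52 of 142 (36.6%). Without these cells the share ratio of granular cells was 1.77, and 216 genes were higher and 93 lower between the libraries, of which 119 and 39 were among the original 175 and 53.

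Several further genes were spread over many cells and kept their side under every setting tried. Nmt1, an N-myristoyltransferase, had 72.6 and 176 CPM, or 2.42-fold higher (1.85 to 3.21). Its cells ranged from 0 to 2.30 UMIs per 10000 with a median of 0.520 in the PBS-labelled, and from 0 to 6.01 with a median of 1.51 in the other library. The upper cells were sitagliptin-labelled and the lower ranges overlapped, with 19 of 50 and 32 of 142 cells at 0. Over the settings its ratio was 2.04 to 2.65. Ppp2r3a, a regulatory subunit of protein phosphatase 2A, had 77.2 and 196 CPM, 2.54-fold higher (1.96 to 3.34), with medians of 0.565 and 1.73 UMIs per 10000. Slc38a2, a neutral amino acid transporter, had 144 and 328 CPM, 2.28-fold higher (1.88 to 2.77), with medians of 0.953 and 2.86. These 3 were also higher in the spinous-like cells of that library, by 2.33, 1.90 and 1.825-fold, so their difference was not confined to granular cells.

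Other named genes at least 2-fold higher in the sitagliptin-labelled cells were Ptn (pleiotrophin), F2rl1 (the protease-activated receptor PAR2, which kallikreins can cut), Matr3, Tsc22d3, Clstn1 and Ccni. F2rl1 had 30.65 and 78.4 CPM, or 2.56-fold higher (1.70 to 4.0), and was found in 14 of 50 and 74 of 142 cells. In spinous-like cells the ratios of these genes were 2.06 for Ptn, 1.66 for Tsc22d3, 1.36 for Ccni, 1.21 for Clstn1, 1.16 for F2rl1 and 0.995 for Matr3. Ptn had only 12 UMIs in the PBS-labelled cells, and 1 of the 142 sitagliptin-labelled cells held 33.3% of its UMIs there. The lower ones besides those above were Tmem165, H2-Q6, Tmcc3 and Fchsd2, with ratios between 0.845 and 0.969 in spinous-like cells. Tmcc3 had 70.4 and 34.7 CPM, 2.03-fold lower (1.42 to 2.885), in 31 of 50 and 51 of 142 cells. H2-Q6, a class I histocompatibility gene, was 2.07-fold lower, but 59.6% of the words at its 3′ end occur in other genes.

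**Figure D5:**
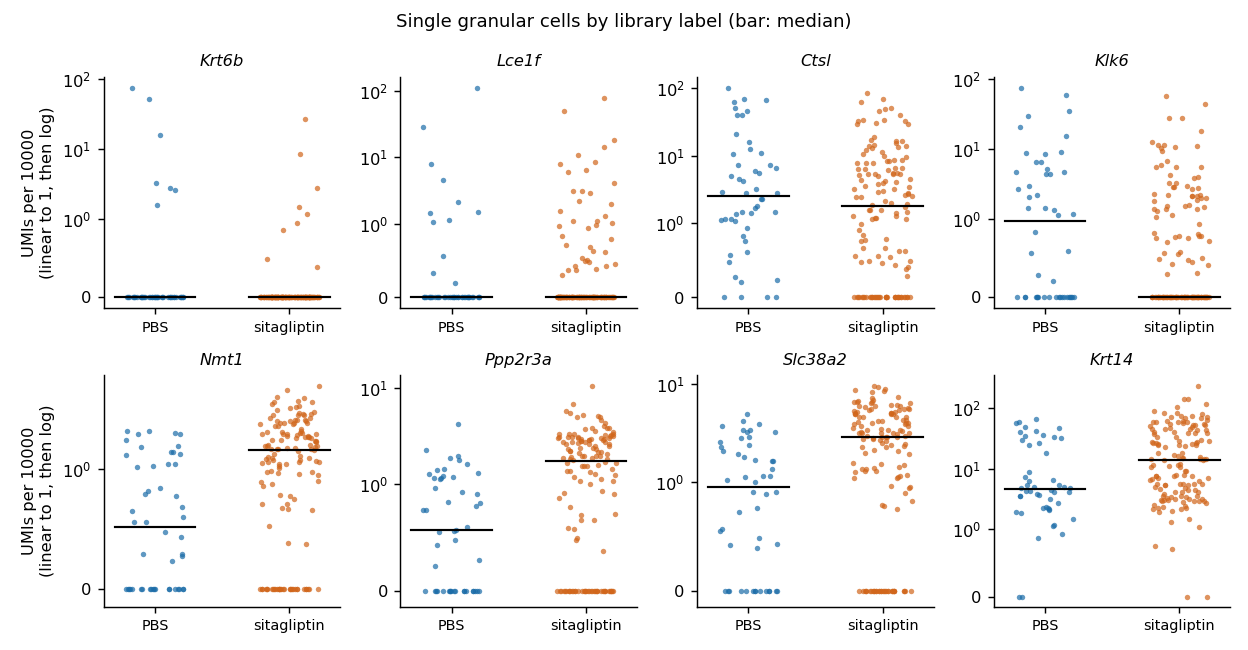
UMIs per 10000 in every granular cell for 8 genes, by library label. The scale is linear up to 1 and logarithmic above, bars are medians, and points are spread sideways for visibility. Krt6b and Lce1f lie at 0 in most cells with a few high ones, and Nmt1, Ppp2r3a, Slc38a2 and Krt14 are shifted up over many sitagliptin-labelled cells.

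Genes that respond to glucocorticoids were given together. Of 19 listed, 6 could be compared and 3 were at least 1.5-fold higher in the sitagliptin-labelled cells, with none lower and a median log2 ratio of 0.57 over 16 measured. Over all genes measured the median was 0.10, and of all genes compared 6.14% were higher and 1.86% lower. Tsc22d3 (GILZ) had 36.3 and 86.0 CPM, 2.37-fold higher (1.62 to 3.57), in 19 of 50 and 72 of 142 cells. Mt2 and Dusp1 were 1.675-fold and 1.605-fold higher, and Dusp1 is also an immediate early gene of tissue dissociation. Of 12 detoxification and redox genes compared, 4 were higher and none lower, among them Txnip at 49.9 and 92.7 CPM and Cat (catalase) at 62.4 and 105 CPM. All 12 desmosome genes and all 7 tight junction genes compared lay within 1.5-fold, as did 92% of all genes compared. Of 31 barrier lipid genes 2 were higher, Smpd3 at 1.59-fold and Alox12e at 1.52-fold, beside 6.14% of all genes compared. These counts are near the shares over all genes.

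Cytokine genes were divided. Of 12 compared, 3 were lower and 1 was higher. Il1f5, Il1f6 and Il1f8 were 0.618, 0.656 and 0.572 times the PBS-labelled level, and Defb6, a beta-defensin, was 2.98-fold higher at 78.3 and 233 CPM. No gene of the interferon list had enough counts to be compared. Dpp4, the target of sitagliptin, had 2 UMIs in all PBS-labelled granular cells together and 11 in the sitagliptin-labelled ones, or 2.27 and 5.23 CPM, with an interval of the ratio from 0.503 to 21.4. A difference in Dpp4 was not detectable at this depth. Of the 10 genes of its family, Dpp3 alone had enough counts, at 149 and 143 CPM.

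Macrophage markers differed between the libraries' granular cells. The 10 genes summed to 282 and 8.08 CPM, with none and 5 of them at 0, beside 593 and 9 macrophage-like cells in the libraries. Lyz2, a defining gene, had 35 and 0 UMIs, where a count of 0 allows up to 1.43 CPM, and 1 cell held 60.0% of the 35. The Langerhans and dendritic list summed to 539 and 351 CPM, and fibroblast markers to 86.3 and 108 CPM. The part of this RNA in the other differences was not tested.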

How the data were processed

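Single-cell RNA of mouse skin was measured in 1 library for each treatment, grouped by the treatment labels. The authors deposited whole-number counts of UMIs for 31053 genes and each barcode, not normalized, and the submitters' processing notes list Cell Ranger 3.1.0 and mm10. The sources used here do not describe cell calling, and 75 barcodes occurred in both libraries, of which 1 was a granular cell.

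UMIs were summed over granular cells and divided by the total, as counts per 1000000 UMIs (CPM). Ratios have exact conditional binomial 95% intervals and shares Clopper-Pearson ones. UMIs without replicate libraries allow no test, so genes were counted by size: 1.5-fold between libraries, and 2-fold against spinous-like cells in both. List medians took members of 20 or more UMIs, with 1 CPM added as pseudocount. The spinous-like gate needed Krt1 and Krt10 at 0.5% of UMIs or more and above Krt5 and Krt14. The members and the 36 gene lists were chosen with earlier results of these data known. Named were up to 12 genes each way between libraries, up to 15 higher and 10 lower against spinous-like cells, and the list members with the highest and lowest values. Some members named in the ranges of marker share and among the list examples were chosen after their values were seen. These names left out rule, predicted, sex-linked, haemoglobin, ribosomal, mitochondrial, T cell receptor and immunoglobulin genes. Between libraries they also left out genes of dissociation and those that another gated cell group held at over 10 times the level. Of 31053 gene identifiers, 30934 (99.6%) matched GENCODE vM21, and 192 of the 261 higher genes matched a RefSeq promoter window. The 1.5-fold calls between libraries and the intervals of the ratios were tried on simulated sums of counts without variation between cells. The other steps were not simulated. Python 3.11.15, numpy 2.4.6, scipy 1.17.1 and pandas 2.3.3 were used.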

Additional observations from a re-analysis of the deposited data

Results flagged for a closer look

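The ratio of the sitagliptin-labelled to the PBS-labelled library went opposite ways in granular and spinous-like cells for 2 envelope genes. For Lce1e it was 0.406 in granular and 5.32 in spinous-like cells. For Lce1f it was 0.470 in granular and 3.67 in spinous-like cells. With 1 library per treatment the difference between the cell groups was not tested, and 1 PBS-labelled cell held most of the UMIs of each gene.

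Cells outside the depth and mitochondrial limits also met the gene criteria of the rule. From 1000 to under 3000 UMIs there were 6 such cells in the PBS-labelled library, 0.614% of 977, and 146 in the sitagliptin-labelled library, 1.26% of 11562. Over the mitochondrial limit there were 8, or 0.567% of 1412, and 15, or 1.74% of 862.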

How the results depend on the processing

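Alternatives were a marker threshold of 0.25% or 1%, all 5 genes detected, Krt79 at 0, at least 1000 or 5000 UMIs, at most 5% mitochondrial UMIs, shared barcodes or possible doublets left out, 2 other totals, mean CPM over cells, thinning to 3000 UMIs and floors of 20 or 100 CPM. Chosen after seeing the data were 3 ranges of marker share weighted alike, members with basal keratins left out, and the cell highest in each gene left out. Ranges with at least 20 cells in each library could not be used, as none held 20 PBS-labelled cells, so the naming condition on ranges used the 3 ranges. No paired analysis was possible because each group has 1 library.

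The share ratio of granular cells was 3.15 at a 0.25% threshold and 3.81 without possible doublets, and from 1.66 to 2.28 under the others. Possible doublets were left out of the granular cells only, not of the retained barcodes. Genes higher between the libraries, 175 in the report, were 329 with all 5 genes detected, 289 with Krt79 at 0, 353 without possible doublets, 510 after thinning, 547 at 20 CPM and 66 at 100 CPM. Lower genes, 53 in the report, were 85 at a 0.25% and 84 at a 1% threshold, 125 with all 5 genes, 126 with Krt79 at 0, 119 at 5% mitochondrial UMIs, 169 without possible doublets, 90 with a total without rule, haemoglobin, ribosomal and mitochondrial genes, 106 by mean CPM, 332 after thinning, 187 and 22 at 20 and 100 CPM, and 93 without basal keratin cells. Genes lower than in spinous-like cells, 52 in the report, were 3 and 207 at the 0.25% and 1% thresholds, 86 with Krt79 at 0, 32 at 1000 UMIs, 208 without possible doublets, 126 with the narrower total, 171 by mean CPM, 174 after thinning, 174 and 16 at 20 and 100 CPM, and 310 without basal keratin cells. Genes higher than in spinous-like cells, 261 in the report, were from 178 to 359 under all 15 settings that gave a value. The other settings moved no count by over 1.5 times, and the causes of these shifts were not tested.

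Of the 24 genes named between the libraries, 21 kept their direction in every setting tried and 16 also stayed at least 1.5-fold apart. Krt6a turned to 1.03 at a 1% threshold, 4.03 with all 5 genes, 14.9 at 5% mitochondrial UMIs and 1.505 without the highest cell. Krt6b turned to 1.04 at 5% mitochondrial UMIs. Lce1e turned to 3.54 at 5% mitochondrial UMIs, 1.66 without possible doublets and 1.10 without the highest cell. Of other genes, Cenpf turned to 0.911 with Krt79 at 0 and Lce1c to 0.9505 without basal keratin cells. Few cells and 12 to 73 UMIs in the PBS-labelled sums limit Ptn, Top2a, Lce3c and Lce1l.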
